A study of Mus musculus with 22 samples.

Results

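The genes described here are 10 transcription factors that direct myeloid and stem cell programs: Spi1, Fli1, Erg, Cebpa, Cebpb, Meis1, Gfi1, Irf8, Mitf, and Ikzf1. They were taken by name, 10 of 21866 protein-coding genes in GENCODE (mm10, release M21), and each was followed over its gene body plus 50 kb on each side. These 10 loci held 18 of the 16244 H3K4me3 regions and 43 of the 24299 H3K27ac regions of the series, where a region is the union of overlapping peaks from the 10 lists of a mark. H3K4me3 is a histone mark of active promoters, while H3K27ac is found at active enhancers as well. Both were profiled by ChIP-seq in G1ER (G1E-ER4) cells, a single mouse erythroid progenitor line that lacks GATA1 and carries an estrogen-inducible GATA1 (GATA1-ER). All cells were grown with SCF and EPO. Undifferentiated cells (0 h) were compared with cells taken 2, 6, 12, or 24 h after 10-7 M β-estradiol was added, with 2 replicate lists per mark and time point. For CTCF, a DNA-binding protein of chromatin loop anchors, there was 1 list each at 0 h and 24 h. The replicates were described as independent experiments.

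Blood stem and progenitor cells choose between erythroid and myeloid fates through transcription factors that oppose each other. PU.1, the product of Spi1, and GATA1 bind and inhibit one another, and PU.1 with the C/EBP factors drives granulocyte and macrophage genes. The ETS factors ERG and FLI1 and the homeobox factor MEIS1 sustain stem cells, and their genes are normally turned down as red cells mature. GATA1 binds the sequence AGATAA, often next to an E-box bound by TAL1, and PU.1 binds the ETS sequence GAGGAAGT.

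The sequences below are 200 bases of intron from the distal regions called at 24 h that held a GATA, composite, or PU.1 motif, read from the plus strand of GRCm38 (mm10) and centered on the composite match or, without one, on the AGATAA or GAGGAAGT match nearest the center of the region. Capitals mark the motif matches on either strand.
Spi1 +17.2 kb (chr2:91113949-91114148, Spi1 intron, H3K27ac peak absent at 0 h): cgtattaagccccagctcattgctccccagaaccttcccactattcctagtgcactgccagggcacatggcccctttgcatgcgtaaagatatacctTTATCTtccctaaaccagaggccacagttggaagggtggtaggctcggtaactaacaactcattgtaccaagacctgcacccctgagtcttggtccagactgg
Cebpb -16.5 kb (chr2:167673055-167673254, intron of the neighbor Tmem189, H3K27ac peak absent at 0 h and 2 h): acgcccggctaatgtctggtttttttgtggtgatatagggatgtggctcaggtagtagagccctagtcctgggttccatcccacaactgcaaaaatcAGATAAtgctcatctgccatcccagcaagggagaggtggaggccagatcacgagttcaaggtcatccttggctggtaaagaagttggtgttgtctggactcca
Ikzf1 +55.5 kb (chr11:11741638-11741837, Ikzf1 intron, H3K27ac peak absent at 0 h): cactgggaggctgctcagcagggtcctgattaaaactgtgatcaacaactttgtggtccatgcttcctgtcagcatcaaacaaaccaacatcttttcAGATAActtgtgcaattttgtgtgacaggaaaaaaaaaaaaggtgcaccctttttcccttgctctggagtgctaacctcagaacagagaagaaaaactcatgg
Meis1 +94.2 kb (chr11:18924938-18925137, Meis1 intron, longer H3K27ac peak after 0 h): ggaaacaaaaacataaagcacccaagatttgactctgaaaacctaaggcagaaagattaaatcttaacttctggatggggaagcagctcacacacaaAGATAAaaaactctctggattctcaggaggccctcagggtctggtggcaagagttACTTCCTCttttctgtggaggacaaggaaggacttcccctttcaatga
Erg +92.5 kb (chr16:95438195-95438394, Erg intron, H3K27ac peak absent at 0 h): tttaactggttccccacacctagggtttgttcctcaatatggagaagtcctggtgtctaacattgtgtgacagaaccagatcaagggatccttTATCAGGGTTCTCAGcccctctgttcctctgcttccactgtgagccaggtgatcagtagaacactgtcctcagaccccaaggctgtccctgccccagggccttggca
Erg +43.6 kb (chr16:95486636-95486835, Erg intron, shorter H3K4me3 peak at 24 h): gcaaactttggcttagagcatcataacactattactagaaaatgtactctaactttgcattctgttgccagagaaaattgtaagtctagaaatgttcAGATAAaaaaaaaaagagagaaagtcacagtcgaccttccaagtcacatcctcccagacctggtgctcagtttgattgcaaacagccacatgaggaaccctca
Distances are in kb from the main start site of the gene to the center of the region, positive in the direction of transcription. The Erg +92.5 kb window was centered on a composite match, here CTG with GATA after 8 bases, and the Meis1 window held both AGATAA and GAGGAAGT. Windows of 200 bases with a motif could not be placed inside the H3K27ac region at Erg -2.8 kb or the H3K4me3 region at Ikzf1 +102.5 kb.

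The lists gave peak positions but no read counts, so depth is unknown, and a peak length is not a signal strength. Each H3K4me3 list held 12925 to 14452 peaks and each H3K27ac list 17247 to 18333. Fold differences here are on the scale log2(covered bp + 200), which understates change of short regions. In at least 1 list, peaks lay at the promoters of 9 of 10 erythroid markers for H3K4me3 (Tal1 was the exception) and 6 of 10 for H3K27ac. In all 10 lists the counts were 7 and 3. No list held a peak at the promoter of any of 7 macrophage and neutrophil, 4 lymphoid, and 3 other-tissue markers. Of 4 mast cell markers, 3 had H3K4me3 in at least 1 list, with 3 in both lists at 0 h and 1 in both lists at 24 h. H3K27ac was also listed at 3 of the 4 in at least 1 list, with 1 in both lists at 0 h and 0 in both lists at 24 h. The part of these markers in the results below was not tested.

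The length of the peaks had an upper limit that touches several of these genes. No peak in the 20 histone lists was longer than 9200 bp, and no H3K27ac peak was longer than 8973 bp. The 10 H3K27ac lists held 677 peaks of 8.0 to 8.5 kb, 209 of 8.5 to 9.0 kb, and 0 above that. The shortest and the longest regions were missing from lists most often. Of H3K27ac regions whose longest peak was under 2 kb, 77.6% were missing from at least 1 list, and of H3K4me3 regions 60.1%. Above that, of H3K27ac regions whose longest peak was 4 to 6 kb, 12.2% were missing, against 39.4% at 7 to 8 kb and 70.6% at 8 kb or longer. For H3K4me3 the shares were 1.2%, 6.7%, and 41.6%. At a long domain, the absence of the mark and a domain longer than the listed peaks cannot be told apart from these lists.

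**Figure D1:**
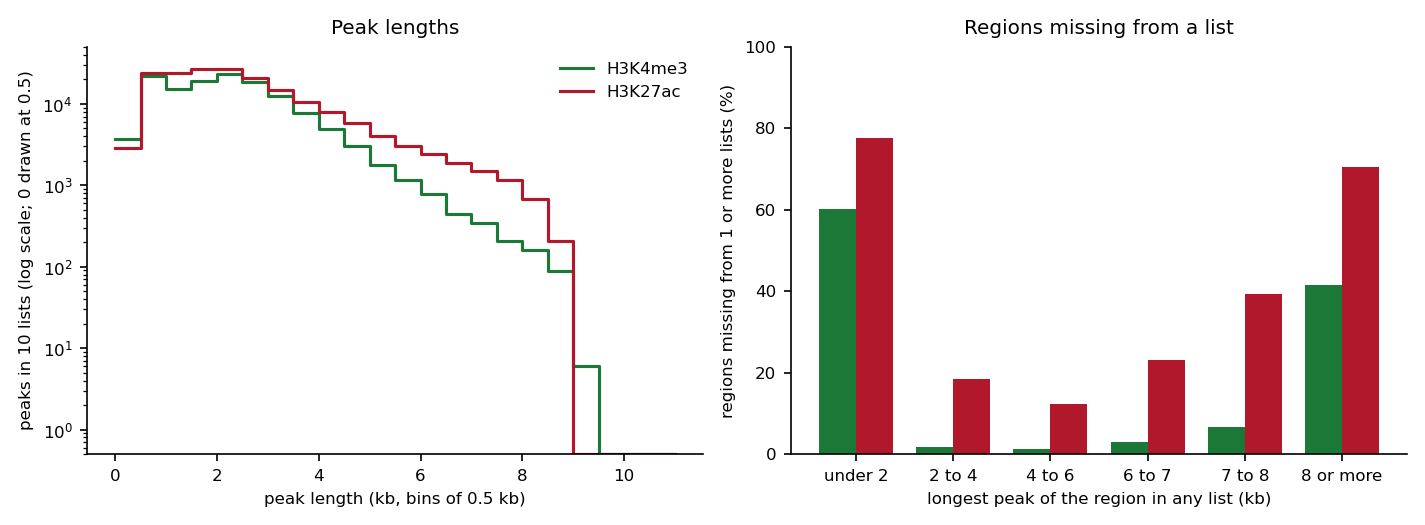
Left, number of peaks (log scale) by peak length in bins of 0.5 kb over the 10 lists of each mark; right, percentage of regions missing from 1 or more lists, by the longest peak of the region in any list. H3K27ac counts end at 9.0 kb, and the H3K27ac missing share falls from 77.6% under 2 kb to 12.2% at 4 to 6 kb and rises to 70.6% at 8 kb or longer.

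At their start sites the 10 genes fell into groups that differed in the marks they carried. Spi1 and Cebpb had both marks at the main start in all 20 lists. Meis1 and Ikzf1 had H3K4me3 in all 10 lists and H3K27ac in none. Gfi1 had H3K4me3 in 3 lists and H3K27ac in 1. Fli1, Erg, Cebpa, Irf8, and Mitf had neither mark at any annotated start in any list. Within 2 kb of the main start, 5 of 10 members had no H3K4me3 in any list, against 53.8% of all 21866 genes. For H3K27ac 7 of 10 had none, against 54.9%. In all 10 lists, 4 members had H3K4me3 (43.7% of all genes) and 2 had H3K27ac (39.0%). The differences from all genes were not tested. In windows of 2 kb around the main start, limma called 0 of 5 tested members for H3K4me3 (0.28% of 10010 promoters) and 0 of 2 for H3K27ac (1.59% of 9602). At an unadjusted p below 0.05 there were 1 (Gfi1) and 0. Over all promoters, 88 were longer and 65 shorter for H3K27ac, or 59 and 67 after scaling to the median peak length of each list.

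Of the regions called at 24 h in the loci, all lay away from the start sites, and H3K27ac regions were mostly longer while both H3K4me3 regions were shorter. Of 38 tested H3K27ac regions, start sites included, 5 were longer and 1 shorter at 24 h than at 0 h, 15.8% of the members' regions against 6.32% of all 21011. Over all H3K27ac regions 693 were longer and 634 shorter, or 643 and 740 after scaling to the median peak length. The split ran from 391 and 880 without replicate 1 at 24 h to 719 and 373 without replicate 1 at 0 h. Of 17 tested H3K4me3 regions, 2 were shorter and 0 longer, 11.8% against 1.58% of 14862, while over all regions 70 were longer and 165 shorter. The 1 shorter H3K27ac region, Erg -2.8 kb, entered the fit only through its peaks at 0 h and had to differ. The direction of the members' calls was not tested against that of all regions. Counted by presence in both lists of one time point and neither of the other, 4 H3K27ac regions were gained (9.3%, against 3.43% of all regions) and 1 was lost (2.33%, against 4.18%). Of the 4, Erg +92.5 kb and Ikzf1 +55.5 kb had peaks of 6 kb or longer. Without regions holding such a peak 2 were gained, and 4 in place of 6 H3K27ac regions were called. For H3K4me3, 0 were gained (0.456% of all regions) and 2 were lost (11.1%, against 3.88%), 1 of them at the start of Gfi1. These counts rest on few regions, and the difference from all regions was not tested. The median log2 difference was 0.07 over the members' H3K27ac regions and -0.02 over their H3K4me3 regions, against 0.01 and -0.04 over all tested regions.

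**Figure D2:**
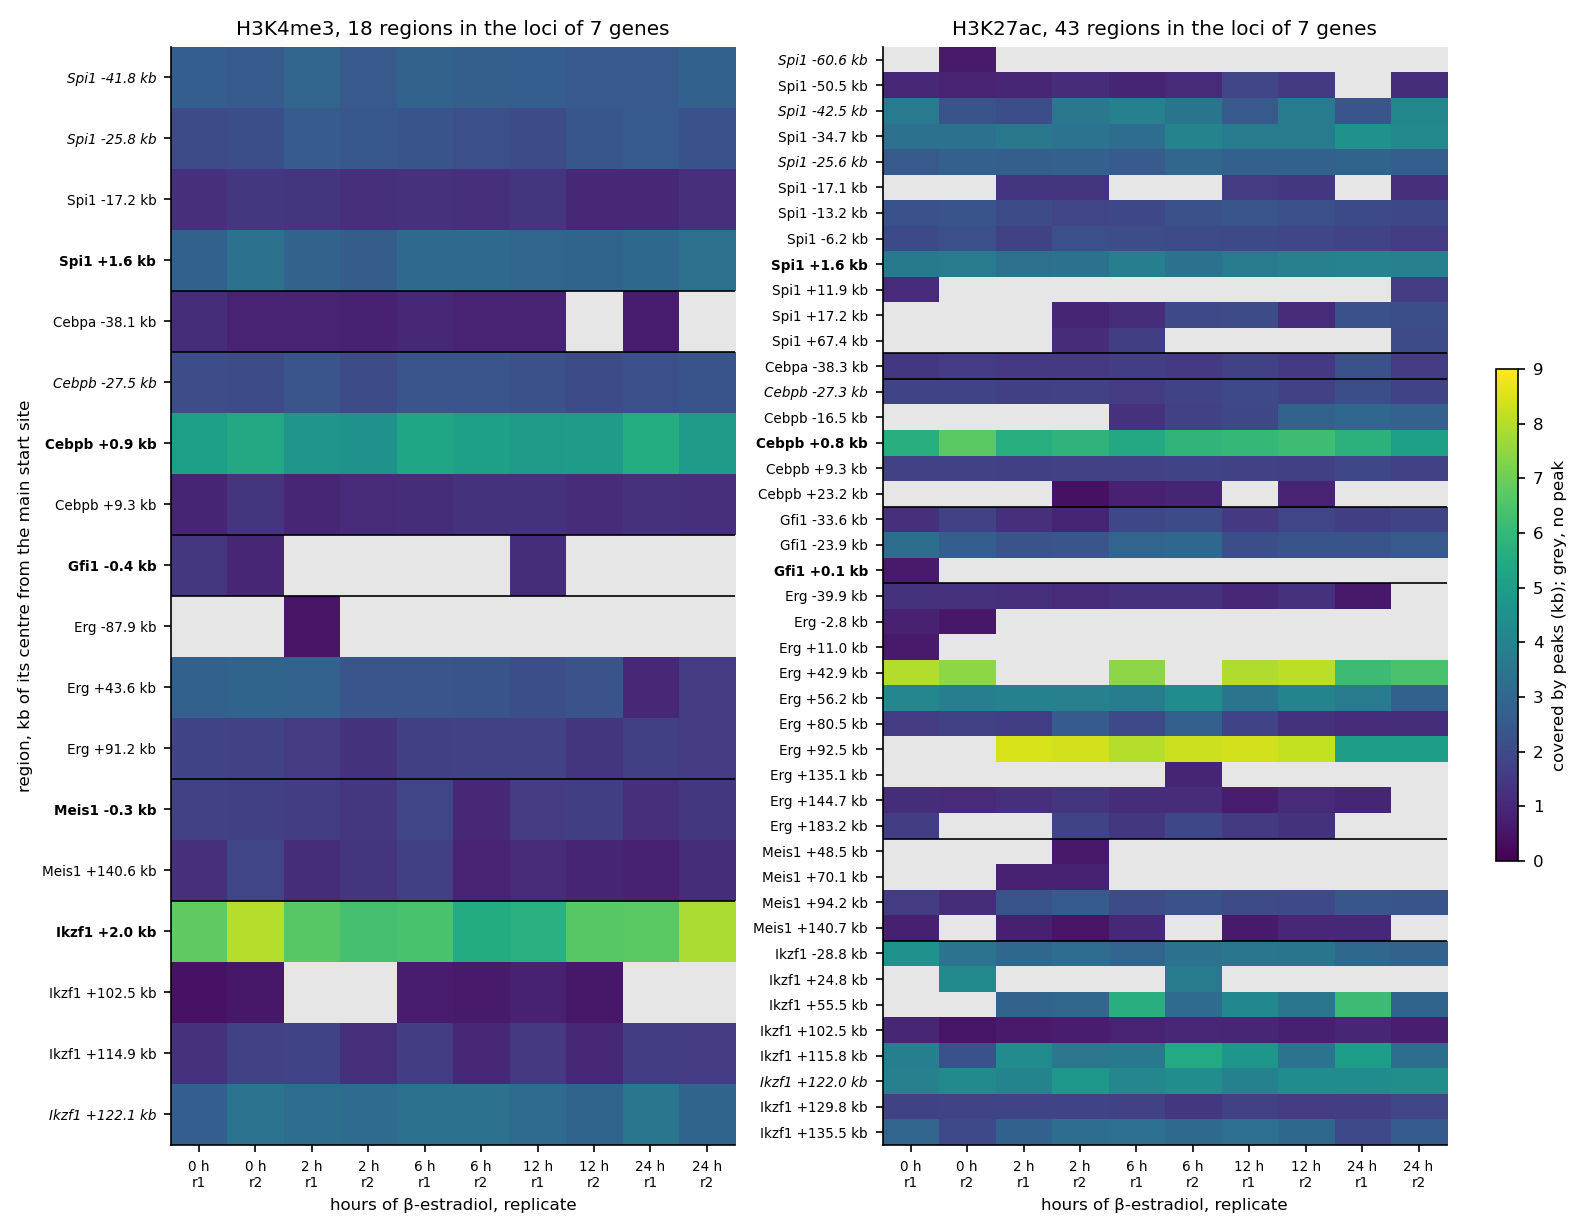
Every H3K4me3 (left) and H3K27ac (right) region in the loci, 1 row per region and 1 column per list, colored by the kb covered by peaks, with grey for no peak. Bold rows lie at the main start, italic rows at promoters of other genes; the 14 H3K4me3 and 21 H3K27ac regions without grey were present in all 10 lists, and loci without any region (Fli1, Irf8, and Mitf) have no row.

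Spi1, which encodes the myeloid master regulator PU.1, kept its start-site peaks and gained an H3K27ac region near its 3' end. The H3K4me3 peak at the start (+1.6 kb, chr2:91096046-91099423) covered 3076 ± 385 bp (0 h) and 3172 ± 214 bp (24 h) (mean ± SD, n = 2), a log2 difference of 0.04 (SE 0.08, adjusted p = 0.908). The H3K27ac peak there covered 3659 ± 32.5 bp and 3956 ± 70.7 bp (log2 difference 0.11, SE 0.07, adjusted p = 0.509). Its score was high in each list, with a median at percentile 95.6 of all H3K27ac peaks of a list. Neither start-site peak of Spi1 passed the test for a difference between 0 h and 24 h of GATA1 activation.

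Spi1 is known to be controlled by an upstream regulatory element. Upstream of its main start, H3K27ac lay at -13.2 kb, over another annotated start, in all 10 lists (1891 to 2367 bp). It also lay at -6.2 kb in all 10 lists (1610 to 2200 bp). H3K4me3 was not listed at either. Both were a little shorter at 24 h (log2 differences -0.20 and -0.26), without passing the test (adjusted p = 0.284 and 0.266). The longest distal H3K27ac region, at -34.7 kb between and within the neighbors Psmc3 and Slc39a13, covered 3357 ± 8.48 bp (0 h) and 4433 ± 292 bp (24 h) and did not pass either (log2 difference 0.38, SE 0.10, adjusted p = 0.0839). At -17.2 kb the marks were the other way around, with H3K4me3 in all 10 lists (1003 to 1463 bp) and H3K27ac in 5 lists (both at 2 h, both at 12 h, and 1 at 24 h).

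The gained Spi1 region at +17.2 kb (chr2:91112051-91114638) includes a coding exon of Spi1. Its H3K27ac peaks covered 0 bp in both lists (0 h) and in replicate 1 at 2 h, and 918 bp in replicate 2 at 2 h. They covered 1175 and 2000 bp (6 h), 2074 and 1100 bp (12 h), and 2284 and 2177 bp (24 h). The lists at 24 h were the longest. Those at 0 h had no peak, which the rule for a gained region requires, and 3.43% of all H3K27ac regions met that rule. The log2 difference was 3.60 (SE 0.78, limma adjusted p = 0.0479). This call was lost in 8 of 10 fits that left out 1 list (adjusted p from 0.00437 to 0.163) and with the replicate block (0.0727). The peaks were weak, with a median score at percentile 14.3 of a list. H3K27ac over all distal regions of the Spi1 locus was 6975 ± 707 bp (0 h) and 11436 ± 3780 bp (24 h), which did not pass the test (log2 difference 0.66, SE 0.24, adjusted p = 0.132).

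Erg, an ETS factor of stem cells and megakaryocytes, had no peak at any of its annotated starts but carried large intronic domains. H3K4me3 was listed in every list at +43.6 kb and at +91.2 kb, neither of them within 1 kb of an annotated coding start. The +43.6 kb peak (chr16:95485220-95488406) covered 2796 and 2886 bp (0 h), 2842 and 2367 bp (2 h), and 2381 and 2333 bp (6 h). It covered 2172 and 2287 bp (12 h), and 996 and 1587 bp (24 h). All lists from 6 h on were below both lists at 0 h, and both lists at 24 h were below all others. The log2 difference at 24 h was -1.06 (SE 0.17, adjusted p = 0.0314), a call kept in 4 of 10 fits without 1 list and lost with the replicate block. The +91.2 kb peak covered 1788 ± 38.9 bp (0 h) and 1653 ± 84.8 bp (24 h) (log2 difference -0.10, SE 0.13, adjusted p = 0.815). Summed over distal regions, H3K4me3 of the Erg locus fell short of the threshold (from 4629 ± 24.8 to 2945 ± 333 bp, log2 difference -0.62, SE 0.13, adjusted p = 0.0593).

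H3K27ac formed a domain around each of these intronic H3K4me3 peaks, and each domain was missing from some of the lists, while its peaks at other times covered 7430 to 8439 bp, near the limit, and were shorter at 24 h. The +92.5 kb region (chr16:95433555-95442146) had no peak in either list at 0 h. It covered 8439 and 8397 bp (2 h), 7988 and 8300 bp (6 h), and 8391 and 8212 bp (12 h). At 24 h it covered 5027 and 5005 bp. The replicates nearly coincided, and the log2 difference at 24 h was 4.71 (SE 0.05, adjusted p = 1.27e-07), called in 10 of 10 fits without 1 list. H3K4me3 at +91.2 kb, inside the domain, was present at 0 h in both lists, and the domain was shorter at 24 h than at any time from 2 h to 12 h. Whether the region lacked H3K27ac at 0 h or held a domain beyond the limit cannot be told apart. The +42.9 kb region covered 7969 and 7468 bp (0 h), was absent from both lists at 2 h, and covered 7430 bp in 1 list at 6 h. At 12 h it covered 7918 and 8111 bp and at 24 h 6183 and 6416 bp. It was not called (log2 difference -0.28, SE 1.46, adjusted p = 0.993), and where it was listed at both times it was shorter at 24 h.

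Some smaller Erg regions were missing from lists at 24 h. The H3K27ac region at -2.8 kb (chr16:95532740-95533597), the nearest to the main start, covered 831 and 574 bp (0 h) and had no peak in the other 8 lists. Since only the lists at 0 h brought it into the fit, its call (log2 difference -2.16, SE 0.28) is given as a description. At -39.9 kb H3K27ac covered 1326 and 1285 bp (0 h), and 628 and 0 bp (24 h) (log2 difference -1.89, SE 0.60, adjusted p = 0.134). At +144.7 kb H3K27ac covered 1170 and 1062 bp (0 h) and then 945 and 0 bp (24 h) (adjusted p = 0.346). Over the 8 tested H3K27ac regions of Erg the median log2 difference was -0.96, given as a description only. The 8 include the -2.8 kb region, which had to be shorter. For regions missing from a list at 24 h, the size of the difference depends on the 200 bp added. The distal H3K27ac total was 17709 ± 2343 bp (0 h) and 16532 ± 1621 bp (24 h) and did not differ beyond its spread (log2 difference -0.10, adjusted p = 0.761).

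**Figure D3:**
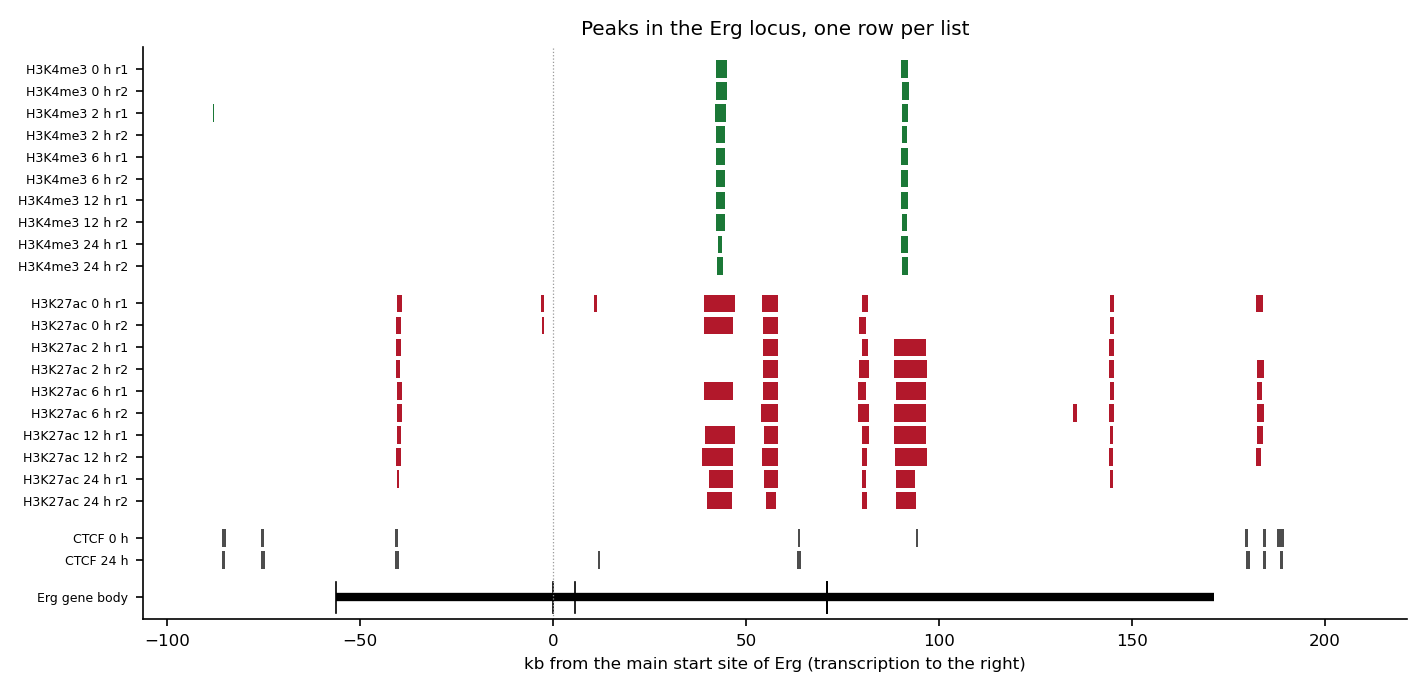
Peaks in the Erg locus by kb from the main start site, 1 row per list (green H3K4me3, red H3K27ac, grey CTCF), with the gene body and annotated starts as black bar and ticks. The intronic H3K4me3 peaks at +43.6 and +91.2 kb are in all 10 lists, while the broad H3K27ac peaks over them are missing at 2 h and at 0 h, respectively.

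Fli1, the ETS factor next of kin to Erg, had no histone peak anywhere in its 221 kb locus in any of 20 lists. The nearest H3K4me3 peaks lay 1186.4 kb upstream and 604.7 kb downstream of its start. Irf8, which directs monocyte and dendritic cell genes, and Mitf, a mast cell and melanocyte factor, were likewise without a histone peak in their loci, with the nearest H3K4me3 peaks 66.03 and 152.2 kb upstream. Thus 3 of 10 members (30.0%) had an empty locus, a share near the 25.0% of all protein-coding genes. Peaks are called only above a threshold, so an empty locus means that no peak was listed there.

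Cebpb encodes C/EBPβ, a driver of macrophage and emergency granulocyte genes. Its start-site peaks were among the broadest of the members and its locus gained an upstream H3K27ac region. H3K4me3 at the start (+0.9 kb, chr2:167686961-167692723) covered 5248 ± 236 bp (0 h) and 5198 ± 514 bp (24 h) (log2 difference -0.02, SE 0.07, adjusted p = 0.992). H3K27ac there covered 6175 ± 740 bp and 5453 ± 490 bp (log2 difference -0.17, SE 0.10, adjusted p = 0.434). Neither mark differed with time beyond the spread of the lists. Both marks were also listed in every list at +9.3 kb, between genes, with 916 to 1350 bp of H3K4me3 and 1700 to 1921 bp of H3K27ac.

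The gained region at -16.5 kb (chr2:167670777-167674041) lies in an intron of Tmem189. H3K27ac was absent from all 4 lists at 0 h and 2 h. It covered 1277 and 1781 bp (6 h), 1939 and 2874 bp (12 h), and 3049 and 2846 bp (24 h). Every list from 6 h on was above every list before it. The log2 difference was 3.10 at 6 h (adjusted p = 0.0038), 3.68 at 12 h (adjusted p = 0.00155), and 3.98 at 24 h (SE 0.29, adjusted p = 0.000638). The call at 24 h held in 10 of 10 fits without 1 list (adjusted p from 0.00147 to 0.00519) and its peaks were far below the length limit. No H3K4me3 was listed in this region. The peaks were of modest score, with a median at percentile 24 of a list. CTCF had a peak at -13.6 kb, beside this region, at 24 h and not at 0 h.

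Because of this region, Cebpb was the 1 member whose distal H3K27ac length was called (9.49% of 11093 loci). The total was 1757 ± 5.66 bp (0 h), 1942 ± 339 bp (2 h), and 4203 ± 477 bp (6 h). It was 4585 ± 1215 bp (12 h) and 4788 ± 257 bp (24 h). The log2 difference at 24 h was 1.35 (SE 0.21, adjusted p = 0.0108), and it missed the threshold without replicate 1 at 24 h (adjusted p = 0.0511). With 100 kb on each side the log2 difference was 0.22, and the call was lost. For H3K4me3, 0 members were called (3.69% of 7288 loci), with 1 (Erg) at an unadjusted p below 0.05.

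Cebpa, which encodes the granulocyte factor C/EBPα, had no peak at its start. Its only regions lay at -38 kb, between genes, where H3K27ac was in all 10 lists (log2 difference 0.27, SE 0.16, adjusted p = 0.432) and covered 1528 ± 96.9 bp before and 1908 ± 443 bp after 24 h of β-estradiol. H3K4me3 was there in 8 lists and missing from replicate 2 at 12 h and at 24 h (1189 and 902 bp before, 704 and 0 bp after 24 h, adjusted p = 0.579).

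Gfi1, a repressor that acts in stem cells and in neutrophil development, had start-site peaks mostly at 0 h. H3K4me3 (-0.4 kb, chr5:107725505-107726916) covered 1412 and 951 bp (0 h) and 1165 bp in replicate 1 at 12 h, and was absent from the other 7 lists. It was lost by the presence rule but not called by limma (log2 difference -2.77, SE 0.81, adjusted p = 0.201). A limma fit to only the 4 lists of 0 h and 24 h called it (adjusted p = 0.0343). Its peaks at 0 h alone brought it into that fit, so it had to differ there. Leaving out replicate 1 or 2 at 12 h is no check of the log2 difference, which rests on the lists at 0 h and 24 h. Only the spread it is tested against changes with those lists. Without replicate 1 at 12 h, the peaks at 0 h alone again brought the region into the fit. H3K27ac at the start was listed once, with 633 bp in replicate 1 at 0 h. These peaks were near the caller's lower end, at percentiles 7.09 to 11.2 of their lists. The distal H3K27ac regions of Gfi1 at -23.9 and -33.6 kb, both in the neighbor Evi5, were in all 10 lists and were not called (adjusted p = 0.163 and 0.564).

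Meis1, a HOX cofactor of stem cells, had a short H3K4me3 peak at its start in all 10 lists and an H3K27ac region that grew within 2 h. The start-site peak (-0.3 kb, chr11:19018326-19020259) covered 1739 ± 68.6 bp (0 h) and 1365 ± 156 bp (24 h) (log2 difference -0.31, SE 0.23, adjusted p = 0.704), with no H3K27ac peak over it in any list. The intronic H3K27ac region at +94.2 kb (chr11:18923429-18926175) covered 1565 and 1173 bp (0 h), 2344 and 2609 bp (2 h), and 2048 and 2272 bp (6 h). It covered 2043 and 1993 bp (12 h) and 2396 and 2346 bp (24 h). Both lists at 0 h were below all 8 later lists. The log2 difference was 0.78 at 2 h (adjusted p = 0.0413) and 0.72 at 24 h (SE 0.13, adjusted p = 0.0228), and neither 6 h nor 12 h passed (adjusted p = 0.118 and 0.149). The call at 24 h was lost in 3 of 10 fits without 1 list (adjusted p up to 0.0927). Beyond the 3' end, at +140.6 kb, H3K4me3 was in all 10 lists (809 to 1871 bp) and H3K27ac in 7, and neither was called (adjusted p = 0.568 and 1). Another intronic region, at +70.1 kb, was listed only at 2 h (813 and 838 bp).

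Ikzf1 encodes Ikaros, a zinc finger factor of lymphoid and stem cells that also acts in erythroid cells. Its start carried the broadest H3K4me3 peak of the members (+2.0 kb, chr11:11684133-11692269), with 7395 ± 848 bp (0 h) and 7274 ± 820 bp (24 h) (log2 difference -0.02, SE 0.13, adjusted p = 1). No H3K27ac peak was listed at this start in any list. Among all promoters, broad H3K4me3 regions lacked a listed H3K27ac peak more often than those of 2 to 3 kb. Of H3K4me3 promoter regions with a mean covered length of 2 to 3 kb, 99.4% had an H3K27ac peak in at least 1 list, against 86.7% at 5 to 6 kb and 69.3% at 6 kb or more. At Ikzf1, a start without H3K27ac and one with a domain beyond the length limit cannot be told apart.

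Within Ikzf1, H3K27ac was gained at +55.5 kb (chr11:11738560-11744920), a region that includes a coding exon. It had no peak in either list at 0 h, and covered 2882 and 2968 bp (2 h), 5683 and 3153 bp (6 h), and 4218 and 3518 bp (12 h). At 24 h it covered 6158 and 2901 bp, a spread wider than at 2 h. All 8 lists after 0 h had a peak, and the log2 difference was 3.97 at 2 h (adjusted p = 0.00444) and 4.47 at 24 h (SE 0.38, adjusted p = 0.00108). The call at 24 h held in 10 of 10 fits without 1 list, although the peaks were weak (median score at percentile 11.3 of a list). A CTCF peak lay within it at both times. The longest peak was 6158 bp, in the range where 23.0% of regions were missing from a list.

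Downstream of Ikzf1, at +102.5 kb in Fignl1 (chr11:11788285-11789132), the marks diverged. H3K4me3 covered 437 and 579 bp (0 h), 0 bp in both lists (2 h), 683 and 647 bp (6 h), 830 and 589 bp (12 h), and 0 bp in both lists (24 h). H3K27ac was in all 10 lists there (510 to 1009 bp). The H3K4me3 log2 difference at 24 h was -1.82 (SE 0.33, adjusted p = 0.0489), and the call was kept in 2 of 10 fits without 1 list. Absence at 2 h and 24 h with presence between them gave no single direction in time. The distal regions with the largest mean length over the lists, at +115.8 kb for H3K27ac (2261 to 5496 bp) and +114.9 kb for H3K4me3 (990 to 1819 bp), lay in Fignl1, were in all 10 lists, and were not called (adjusted p = 0.559 and 0.97). H3K27ac at -28.8 kb was in every list (4033 ± 856 bp before, 2943 ± 98.3 bp after 24 h) and was not called (log2 difference -0.42, adjusted p = 0.141).

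**Figure D4:**
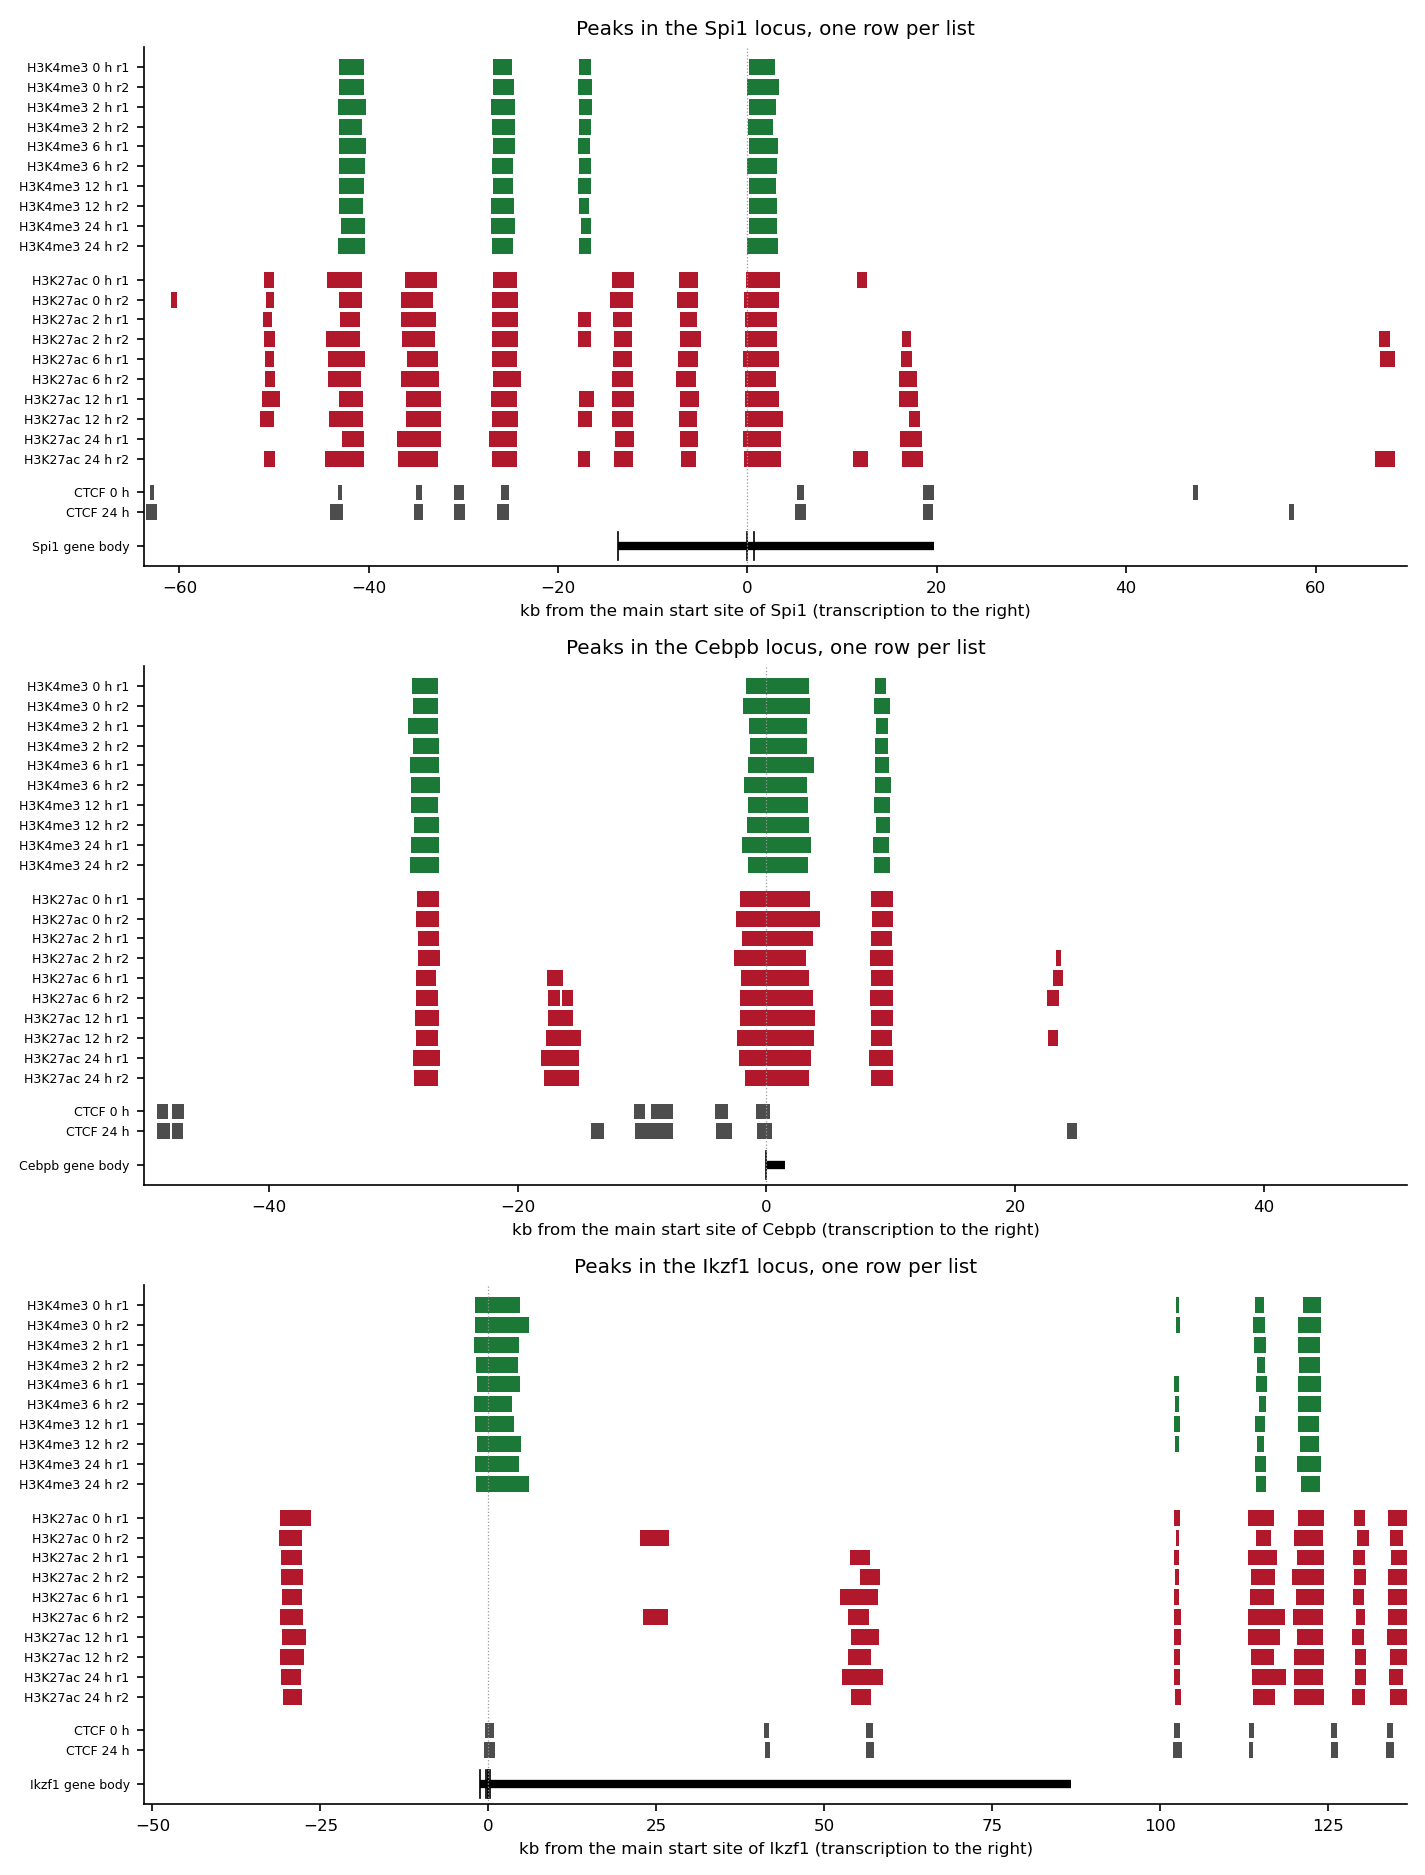
Peaks in the Spi1, Cebpb, and Ikzf1 loci by kb from the main start, 1 row per list (green H3K4me3, red H3K27ac, grey CTCF), with gene body and annotated starts in black. The gained H3K27ac regions at Spi1 +17.2 kb, Cebpb -16.5 kb, and Ikzf1 +55.5 kb have no green peak over them, and the start of Ikzf1 has green but no red.

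**Figure D5:**
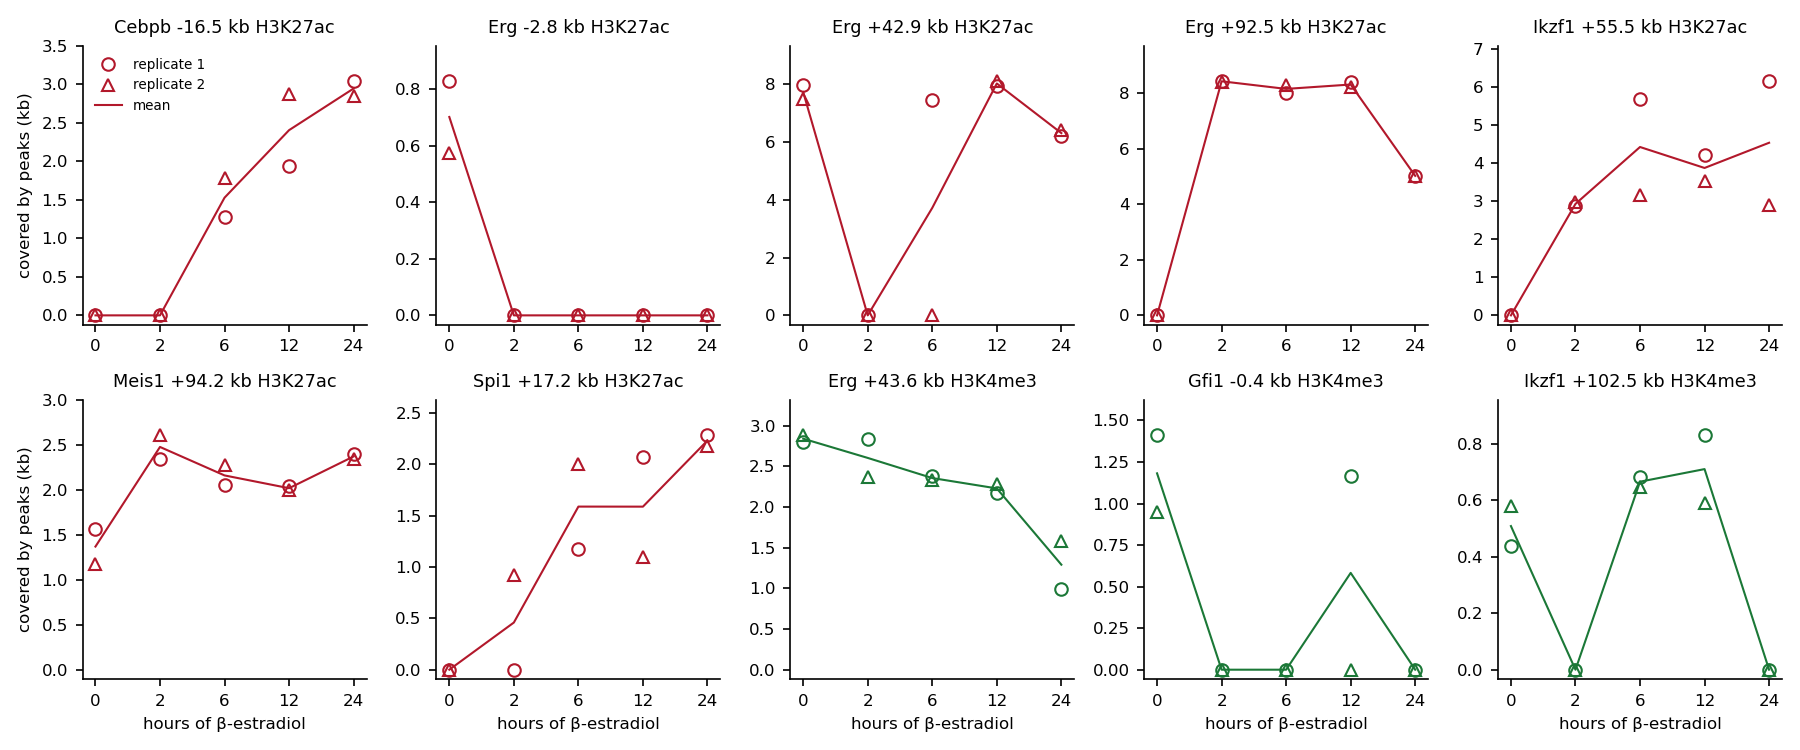
Length covered by peaks in 10 named regions (kb, vertical axes of different range) at each time point (evenly spaced), with circles and triangles for replicates and a line through the mean of 2. The regions of Spi1, Cebpb, Ikzf1, and Erg that were gained by the presence rule start at 0 kb, meaning no listed peak, and the Cebpb region is first listed at 6 h.

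AGATAA, the GATA1 sequence, was found somewhere in each of the 6 H3K27ac regions called at 24 h (1 to 4 matches) and in 1 of the 2 called H3K4me3 regions (5 matches at Erg +43.6 kb, 0 at Ikzf1 +102.5 kb). These regions are of unequal length, so shares were taken over windows of equal length. AGATAA lay in the central 1000 bp of 26 of the 34 distal H3K27ac regions of the members (76.5%), against 62.1% of all 15080 distal H3K27ac regions, and in 3 of the 6 that changed. The composite of CTG and GATA with 8 bases between lay in 8 of 34 (23.5%, against 15.0%) and in 1 of the 6. GAGGAAGT lay in 5 of 34 (14.7%, against 10.0%) and in 2 of the 6. For the 9 distal H3K4me3 regions the counts were 7 (77.8%, against 54.5%), 1 (11.1%, against 12.7%), and 1 (11.1%, against 8.9%). Both strands were searched, and the composite and AGATAA can share the letters GATA. Over its whole 8592 bp the Erg +92.5 kb region held 3 AGATAA, 2 composite, and 2 GAGGAAGT matches. Of the other 5, the Meis1 region held 1 GAGGAAGT match, and the rest held neither the composite nor GAGGAAGT. A match is a description of the sequence only.

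Of 30 other stem cell and myeloid factors, 16 had H3K4me3 and 12 had H3K27ac at the promoter in at least 1 list. The 14 and 18 in no list compare with 53.8% and 54.9% of all genes. The limma fit called 0 of their promoters for either mark (3 and 2 at an unadjusted p below 0.05). Over all promoters it called 0.28% of 10010 and 1.59% of 9602. At distal regions, 3.69% of 7288 loci of all genes were called for H3K4me3 and 9.49% of 11093 for H3K27ac, in either direction. Among these factors 1 of 16 tested loci was shorter for H3K4me3 and 1 of 16 was longer for H3K27ac. The first was Ikzf2, a relative of Ikzf1, with 3509 ± 1008 bp (0 h) and 1491 ± 16.3 bp (24 h) (log2 difference -1.11, SE 0.21, adjusted p = 0.0384). The second was Myb, a progenitor factor, with 4341 ± 246 bp (0 h) and 14030 ± 3087 bp (24 h) (log2 difference 1.63, SE 0.25, adjusted p = 0.0115). Its total was 4145 ± 34.6 bp (2 h), 4442 ± 984 bp (6 h), and 3674 ± 1165 bp (12 h), so it was longer only at 24 h. At the Myb promoter, H3K27ac was in 7 of 10 lists and filled the window of 4001 bp in each of them. Whether the length limit touches this locus was not tested. Among the 30, 7 loci (23.3%) had no histone peak, against 25.0% of all protein-coding genes.

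CTCF peaks in the 10 loci formed 43 regions, of which 32 were present at both times, 3 only at 0 h, and 8 only at 24 h. The share at both times was 74.4%, against 68.9% of all 43987 CTCF regions, and the share only at 24 h was 18.6%, against 25.1%. The starts of Cebpb and Ikzf1 had a CTCF peak at both times. At Erg a CTCF peak at +94.3 kb, inside the H3K27ac region that was absent at 0 h, was listed at 0 h and not at 24 h. Fli1, Irf8, and Mitf, without a histone peak, held 2, 1, and 1 CTCF regions. With 1 list per time point these differences have no replicate check.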

How the data were processed

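Peak lists of H3K4me3, H3K27ac (10 lists each), and CTCF (2 lists) in G1ER cells were analyzed. Histone reads were aligned by the authors with Bowtie2 to mm10, who kept uniquely mapped reads, and called peaks per library with MACS without its model step. Versions, threshold, and control are not given in the sources used here, nor are methods for CTCF. One label names a human build, but the positions lay within the mouse chromosomes. Each deposited peak has a score given by the authors, used only to rank or filter peaks. The lists hold no counts, so depth and the precision it gives are unknown.

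Peaks of the 10 lists of a mark were merged where they touch. The bp covered per region, promoter (2 kb around 1 start per gene), or distal locus (regions over 1 kb from coding starts, within the gene body and 50 kb) were compared on log2(bp + 200) with limma 3.58.1 (R 4.3.3; trended variance, mean per time point, features in at least 2 lists, Benjamini-Hochberg over all features, threshold 0.05). Adjusted p-values in the text are from this fit. Lengths that are present or absent depart from the noise limma assumes. Where both lists of a time point held no peak, the size of a log2 difference depends on the 200 bp added. With 2 lists against 2, an exact permutation test could not pass the threshold. Python 3.11.15 (numpy 2.4.6, pandas 2.3.3, pysam 0.24.0, matplotlib 3.10.9) was used. Gene models were GENCODE M21, and sequence was NCBI GRCm38.p6.

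The genes, lists, and motifs were chosen with earlier results of these data known. All members were named, with every region called, gained, or lost at 24 h and the main start and longest distal regions. Alternatives were other pseudocounts, windows, flanks, list minimums, merging, score and overlap filters, scaling, a linear trend, 4 lists only, a replicate block, and leaving out each list. Leaving out regions with a peak of 6 kb or longer was added after seeing the data.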

Additional observations from a re-analysis of the deposited data

How the results depend on the processing

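The lists limit what can be seen: they hold no depth, each peak is present or absent, replicates number 2, and peaks stop near 9 kb, so weak regions and long domains both drop out. The H3K27ac regions gained by the presence rule at Cebpb -16.5 kb, Erg +92.5 kb, and Ikzf1 +55.5 kb were called in each of 10 fits that left out 1 list. They were also called under the other alternatives, except Erg and Ikzf1 with a linear trend (adjusted p = 0.179 and 0.082). Into the fit to only the 4 lists of 0 h and 24 h they came through their peaks at 24 h alone, so they had to differ there. They could not be fitted with the score filter, nor Erg and Ikzf1 without regions holding a peak of 6 kb or longer. Fits that leave out 1 list cannot tell an absent mark from a domain beyond the length limit at Erg +92.5 kb. The cause was not tested for any of the changes below.

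Calls over all features were as follows. With a linear trend over time there were 87 H3K4me3 and 744 H3K27ac regions (235 and 1327 in the main fit), and 0 and 23 promoters (28 and 153). With only the 4 lists of 0 h and 24 h, there were 734 and 2339 regions, 45 and 255 promoters, and 651 H3K4me3 distal loci (269 in the main fit). With a filter that kept the peaks scoring in the upper part of the pooled lists (from the median up), 90 and 405 regions, 83 H3K4me3 promoters, and 1 and 225 distal loci (269 and 1053) were called. Promoter windows of 5 kb gave 74 for H3K4me3, and windows of 1 kb gave 77 for H3K27ac. A minimum of 5 lists gave 107 H3K4me3 distal loci.

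Among the members, the H3K4me3 count of 2 regions became 0 with the linear trend and with the score filter. It became 1 (Erg +43.6 kb) with a minimum of 1 or 5 lists, with a pseudocount of 1000 bp, and without long regions. With only the 4 lists, neither Erg +43.6 kb nor Ikzf1 +102.5 kb stayed called (limma adjusted p = 0.131 and 0.052). The 1 region called there was Gfi1 -0.4 kb, which had to differ in that fit. The H3K27ac count of 6 regions became 2 with the linear trend and 0 with the score filter, and the Cebpb distal locus was no longer called with that filter (0 members). Distal H3K4me3 loci went from 0 members to 2 with 20 kb of flank and to 1 with the linear trend and with scaling to the median peak length. Lost H3K4me3 regions were 0, gained H3K27ac regions 1, and lost H3K27ac regions 0 with the score filter. Gained H3K27ac regions were 2 without long regions, and lost ones were 3 when peaks had to cover at least 50% of the region and 2 with 100 kb of flank.

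Leaving out 1 list at a time gave 75 to 292 H3K4me3 regions, with 0 to 2 among the members, 25 to 48 promoters with 0 to 1, and 0 to 379 distal loci with 0 to 1. The distal count was 13 without replicate 1 at 0 h and 0 without replicate 2 at 0 h, and the region count 75 and 101. For H3K27ac the range was 0 to 1 members' promoters, 630 to 1118 distal loci, and 2 to 4 lost members' regions, and the fewest distal loci were 651 without replicate 1 at 0 h and 689 and 630 without replicate 1 or 2 at 24 h. Start-site H3K4me3 log2 differences near 0 changed sign. They ranged from -0.075 to 0.165 at Spi1, -0.113 to 0.081 at Cebpb, and -0.137 to 0.091 at Ikzf1. The linear trend gave 0.018 at Cebpb, scaling gave -0.015 at Spi1, and the 5 kb window gave 0.045 for the Spi1 promoter.

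Replicate numbers did not pair the lists: differences between replicates correlated across time points from -0.076 to 0.032 for H3K4me3 and -0.029 to 0.017 for H3K27ac, with 0 of 10 pairs of time points above 0.1 for either mark. With a replicate block, 146 H3K4me3 regions (0 among the members) and 166 H3K4me3 distal loci were called. The block also ended the H3K27ac call at Spi1 +17.2 kb (adjusted p = 0.0727), and the other 5 H3K27ac regions stayed called.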
